A study of Homo sapiens with 6 samples.

Results

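The G1 cyclins and their kinases were examined as a group of 10 genes: the D-type cyclins CCND1, CCND2 and CCND3, their kinases CDK4 and CDK6, the E-type cyclins CCNE1 and CCNE2, their kinase CDK2, the phosphatase CDC25A, and SKP2, a ubiquitin ligase subunit. They were chosen by symbol for their role in the G1 phase, with earlier results of these data known. All 10 were found among the 15651 genes of the table. The RNA came from MDA-MB-231, a permanent human line of triple-negative breast cancer (TNBC) cells, which lack estrogen and progesterone receptors and HER2 amplification. Cells received either the solvent DMSO or BRL-50481, a selective inhibitor of the cAMP-degrading enzyme PDE7, and 3 samples of each, described in the study as biological replicates, were sequenced. The treatment text of the labels gives 50 μM for 72 h, whereas the treatment tag of the BRL-50481 samples gives 5 μM and 48 h. All 6 libraries came from this cell line, so the values describe TNBC only as far as MDA-MB-231 stands for it.

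D-type cyclins are made when growth factor signals reach a cell in G1, and they switch on CDK4 and CDK6, which begin to phosphorylate the retinoblastoma protein RB1. E-type cyclins then activate CDK2, which completes this phosphorylation, frees the E2F transcription factors and starts DNA replication. CDC25A removes the inhibitory phosphates from CDK2, and SKP2 marks the CDK inhibitor p27 (CDKN1B) for destruction. CCNE1, CCNE2 and CDC25A are themselves textbook E2F targets, whereas the D-type cyclins respond mainly to mitogen signals. MDA-MB-231 cells lack the CDKN2A gene, which encodes the CDK4 and CDK6 inhibitor p16.

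Promoter sequence is shown for 3 members that differed in their response, namely CDC25A, which fell steeply, CCNE1, which fell less, and CDK6, which did not pass the test. Each run is the 250 bases before the RefSeq transcription start site on GRCh38.p14, 5′ to 3′ on the strand of the gene. Capitals mark matches on either strand to the E2F-type motifs TTTCCCGC, TTTCGCGC, TTTGCCGC and TTTGGCGC, to the CCAAT box, which NF-Y binds, and to the GC box GGGCGG, which SP1 binds. The windows lie at chr3:48188418-48188667 on the minus strand (CDC25A), chr19:29811741-29811990 on the plus strand (CCNE1) and chr7:92836574-92836823 on the minus strand (CDK6).
CDC25A: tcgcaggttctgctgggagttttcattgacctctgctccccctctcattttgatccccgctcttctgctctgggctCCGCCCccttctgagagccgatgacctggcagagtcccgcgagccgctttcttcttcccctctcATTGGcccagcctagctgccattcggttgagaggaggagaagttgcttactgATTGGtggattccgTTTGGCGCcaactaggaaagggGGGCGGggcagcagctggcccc
CCNE1: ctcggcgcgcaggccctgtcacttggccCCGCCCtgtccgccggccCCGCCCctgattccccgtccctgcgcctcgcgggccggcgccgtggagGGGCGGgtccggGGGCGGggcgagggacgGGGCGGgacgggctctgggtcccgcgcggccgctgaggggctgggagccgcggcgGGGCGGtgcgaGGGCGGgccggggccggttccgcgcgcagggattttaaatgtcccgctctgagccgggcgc
CDK6: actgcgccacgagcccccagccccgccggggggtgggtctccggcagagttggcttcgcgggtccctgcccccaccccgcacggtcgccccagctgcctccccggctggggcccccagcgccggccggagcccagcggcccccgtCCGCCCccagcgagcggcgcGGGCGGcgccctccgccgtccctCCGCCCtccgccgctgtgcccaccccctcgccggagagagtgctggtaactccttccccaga

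The CDC25A window held 1 E2F-type match, TTTGGCGC, starting 44 bases before the start site, together with 2 CCAAT matches at 58 and 110 bases and 2 GC boxes at 22 and 174 bases. In CCNE1 the same search found 7 GC boxes between 61 and 222 bases before the start site, and in CDK6 3 between 62 and 105 bases, with no E2F-type or CCAAT match in either. Windows of 300 bases, reaching 50 bases past the start site, were given for 6 of the 10 members, 9 windows in all, since CCND3 has 3 and CDK6 has 2. CCND1, CCND2, CCNE2 and CDK2 had none. An E2F-type match occurred in 3.31% of the 35116 promoter windows of the same length, a CCAAT match in 34.61% and a GC box in 44.95%. The cAMP response element TGACGTCA, the CREB binding site, was found in 1.85% of all windows and in 0 of the 9 member windows, and its core TGACG occurred in 24.55% of all windows and in 1 member window, the other start site of CDK6. The core is part of the full element, so these matches overlap. Only exact spellings were counted, so a variant site would be missed, and a window without a match can still hold a site. Such matches are letters in a window and say nothing of binding in these cells.

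The 6 libraries held between 30750573 and 33446984 reads on genes. Values are normalized counts, that is, reads per gene over the size factor of the library, and changes are differences of log2(normalized count + 1) between BRL-50481 and DMSO from limma, called where the p-value, adjusted after Benjamini and Hochberg across the 15246 genes tested, was under 0.05. DMSO replicate 1 stood apart, with a residual SD of 0.142 on the log2 scale against 0.0791 to 0.119 in the other 5 libraries. Calls of members that change without it are given with that value, and the gene lists below were not recounted without it. The mRNA of PDE7A (chromosome 8 of hg38, 65714334 to 65842322), the enzyme that the compound inhibits, went from 406 ± 2.06 to 298 ± 40.6 normalized counts (mean ± SD of 3 libraries), and an annotated lncRNA shares exon sequence with it on the same strand. Of the markers of this line, VIM (56080 to 88610 normalized counts), CD44 (30980 to 43850) and FN1 (13390 to 30790) were high, PGR was at most 7.75 and CDH1 lay between 31.7 and 104.8, ERBB2, which encodes HER2, lay between 1606 and 1979, and SPARC, on the list of genes high in this line, stayed only between 13.3 and 36.3. Summed markers of fibroblasts (2 of 4 genes measured) lay at 579 to 627 normalized counts in DMSO and 610 to 717 in BRL-50481, those of leukocytes (1 of 3, CD14) at 389 to 504 and 438 to 508, and those of endothelium (2 of 3) at 326 to 396 and 465 to 552, of which CDH5 reached at most 2.04 in DMSO and 15.1 in BRL-50481. Luminal epithelial markers (4 of 4) summed to 20544 to 24185 and 20406 to 21507. Their part in the results below was not tested.

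Of the 10 members, 9 were lower in BRL-50481-treated cells and 1, CDK6, did not pass the test. Among all genes tested, 58.7% were called in either direction, 29.8% lower and 28.9% higher. None of the members was called higher by limma, also at an unadjusted p-value under 0.05, by edgeR or by DESeq2 (0 in each), whereas 1, CDK6, was called higher by limma without DMSO replicate 1 and with quantile normalization. The median log2 fold change of the members was −0.74, and that of all genes tested was 0.015. In 9 members the highest BRL-50481 value was under the lowest DMSO value, which held for 32.3% of all genes tested, and the reverse held for 31.9%. A fall of more than 1 on the log2 scale was seen in 3 members, CCNE2, CDC25A and CCND2, and in 2.98% of all genes tested, while a rise of more than 1 was called in 5.06%. In RNA from whole cultures, fewer cells in a given phase of the cycle and less of a transcript in each cell cannot be told apart.

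**Figure D1:**
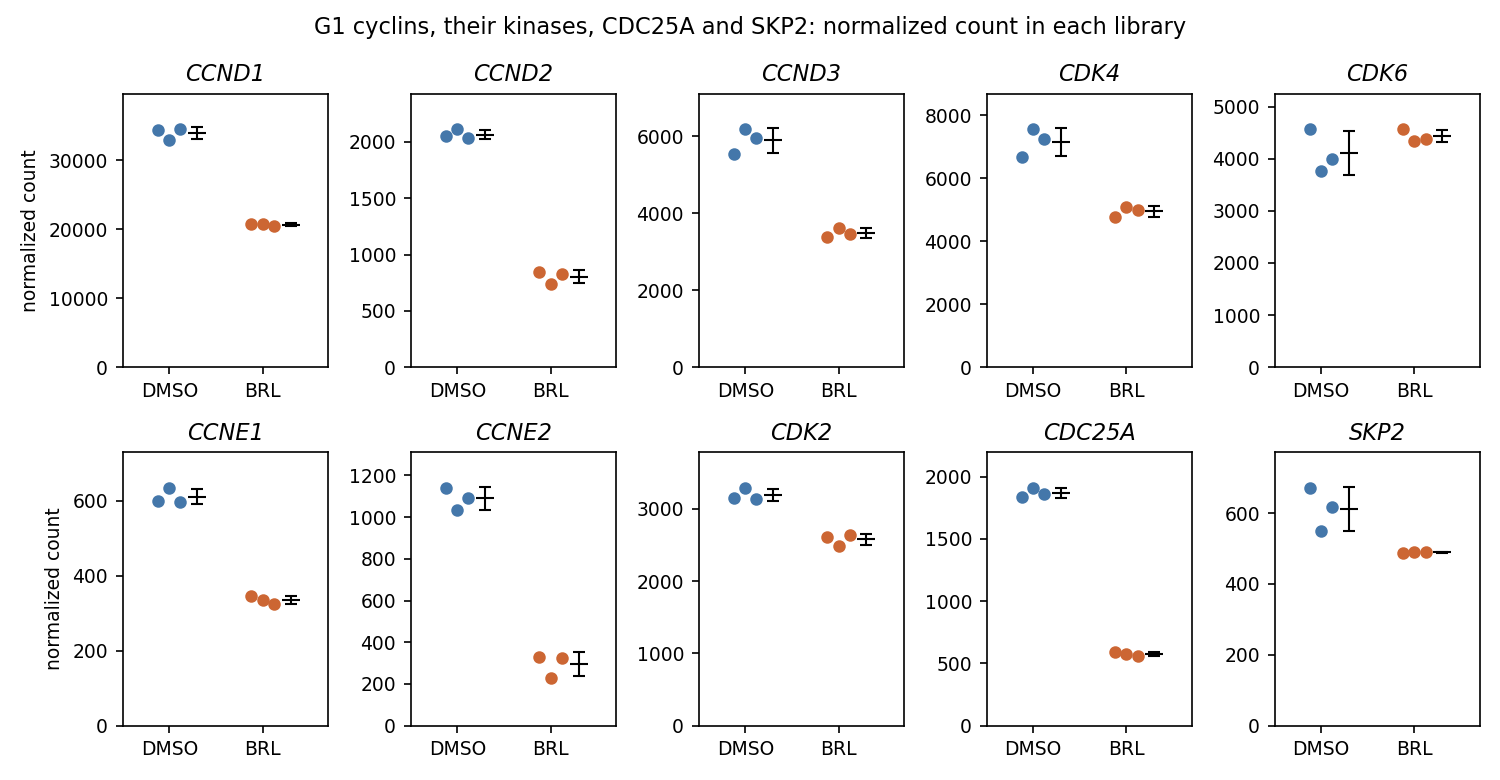
Normalized count (y axis, from 0) of each of the 10 genes in the 3 DMSO libraries (blue) and the 3 BRL-50481 libraries (orange, BRL); black bars give the mean and SD of each group. In 9 panels the BRL-50481 points lie below all DMSO points, and in the CDK6 panel the groups overlap.

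CCND1 encodes cyclin D1, the D-type cyclin most often amplified in breast cancer, and lies on chromosome 11 of hg38 (69641156 to 69654474). It had 34337, 32927 and 34488 normalized counts in the DMSO libraries and 20756, 20734 and 20418 in the BRL-50481 libraries. The groups were far apart and the BRL-50481 libraries nearly equal, with 60.8% of the DMSO mean remaining. The log2 fold change was −0.72 (SE 0.0422, limma adjusted p = 2.58e-08), and omitting any 1 library gave −0.74 to −0.70. CCND1 was the most abundant member by far, so that this change concerned more reads than that of any other member.

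CCND2 encodes cyclin D2, which is silenced in many breast tumors, and was nevertheless measured well here (chromosome 12, 4269771 to 4305353). Its normalized counts were 2051, 2113 and 2033 in DMSO and 849, 735 and 829 in BRL-50481. The groups did not overlap, and the BRL-50481 mean was 38.9% of the DMSO mean. CCND2 fell by 1.36 on the log2 scale (SE 0.0668, limma adjusted p = 5.67e-09). Another annotated gene shares exon sequence with CCND2 on the same strand, so reads from it could be included.

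CCND3 encodes cyclin D3 (chromosome 6, 41934934 to 42050357) and had 5548, 6186 and 5947 normalized counts in DMSO against 3383, 3622 and 3461 in BRL-50481. It fell by 0.76 on the log2 scale (SE 0.0540, limma adjusted p = 1.26e-07), to 59.2% of the DMSO mean, with no overlap between the groups. Per kilobase of the canonical GENCODE transcript, which allows levels of different genes to be compared, the summed D-type cyclins went from 11230 ± 135 to 6715 ± 71.4 normalized counts (mean ± SD of 3 libraries). CCND1 made up 69.7% to 72.6% of this sum in DMSO and 72.0% to 73.1% in BRL-50481, CCND3 24.5% to 27.4% and 24.9% to 26.3%, and CCND2 2.75% to 2.92% and 1.67% to 1.95%. The shares of CCND1 and CCND3 thus overlapped between the groups, whereas that of CCND2 was lower in every BRL-50481 library.

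The ratio of CCND2 to CCND1 within a library, which does not depend on the scaling between libraries, moved by −0.65 on the log2 scale, from −4.04 ± 0.0660 in DMSO to −4.68 ± 0.115 in BRL-50481 (mean ± SD of 3 libraries, ratio not corrected for length). The 2 groups did not overlap (two-sided exact permutation test, p = 0.1, 0.12 after Benjamini-Hochberg adjustment over the 6 ratios tested, where 0.1 is the smallest p that 3 libraries against 3 allow). The ratio of CCND3 to CCND1 moved by −0.039, from −2.53 ± 0.109 to −2.57 ± 0.0503 (mean ± SD of 3 libraries), with overlapping groups (exact permutation test, p = 0.7). This difference was smaller than the spread between replicates, and its sign changed without DMSO replicate 2 (0.018) and after correction for transcript length and GC content (0.088).

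CDK4 and CDK6, the catalytic partners of the D-type cyclins, differed from each other. CDK4 (chromosome 12, 57747727 to 57756013) had normalized counts of 6664, 7556 and 7231 in the DMSO libraries and of 4761, 5096 and 5006 after BRL-50481. All BRL-50481 values lay below all DMSO values, at 69.3% of the DMSO mean. The log2 fold change was −0.53 (SE 0.0550, limma adjusted p = 3.32e-06).

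CDK6 (chromosome 7, 92604921 to 92836573) had normalized counts of 4568, 3760 and 4005 in the DMSO libraries and of 4562, 4346 and 4383 after BRL-50481. DMSO replicate 1 was as high as the highest BRL-50481 library, and the other DMSO libraries lay below all BRL-50481 libraries. The log2 fold change was 0.11 (SE 0.0655, 95% confidence interval −0.029 to 0.25, limma adjusted p = 0.158). Without DMSO replicate 1 CDK6 was called higher (0.19, limma adjusted p = 0.000155), as it was with quantile normalization (0.16, limma adjusted p = 0.0409), whereas after correction of each library for transcript length and GC content it was called lower (−0.13, adjusted p = 0.0018). Its canonical transcript, of 11663 bases, is the longest among the members. The data give no firm direction for CDK6, and the cause of this dependence was not tested.

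The ratio of CDK6 to CDK4 within a library rose by 0.64 on the log2 scale, from −0.80 ± 0.235 in DMSO to −0.16 ± 0.0882 in BRL-50481 (mean ± SD of 3 libraries). It was higher in every BRL-50481 library than in any DMSO library (exact two-sided permutation p = 0.1, again the smallest possible, 0.12 adjusted over 6 ratios), and the difference was 0.37 after the correction for length and GC content. Per kilobase of transcript, CDK4 made up 90.1% to 92.6% of the summed CDK4 and CDK6 level in DMSO and 86.7% to 88.0% in BRL-50481, so that CDK4 remained the more abundant kinase in all 6 libraries. The sum went from 4186 ± 207 to 3036 ± 83.2 normalized counts per kilobase (mean ± SD of 3 libraries).

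**Figure D2:**
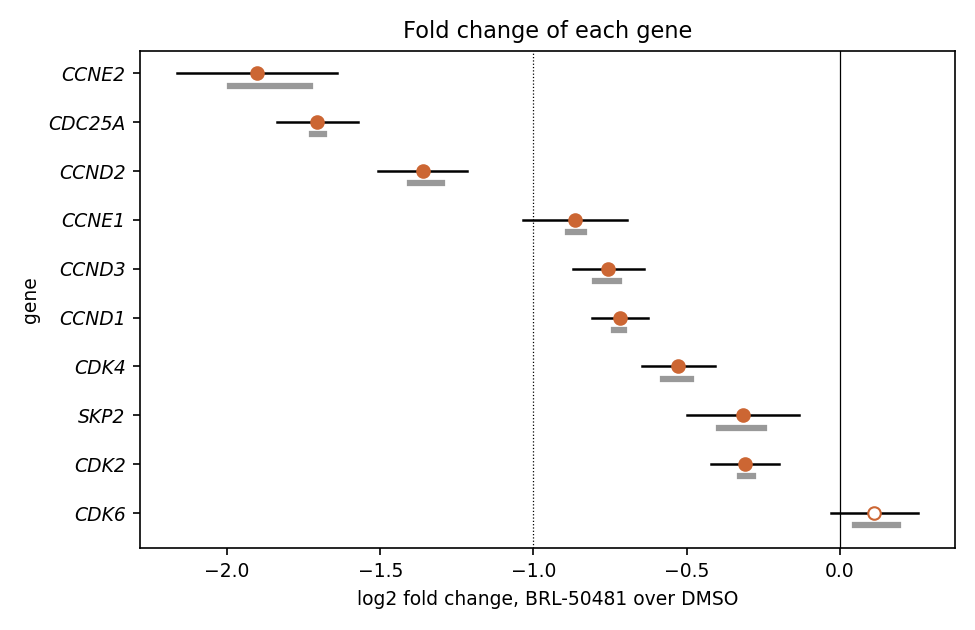
Log2 fold change of BRL-50481 over DMSO for each gene (circles, filled where the adjusted p-value was under 0.05), with the 95% confidence interval from limma (black lines) and the range over the 6 fits that each left out 1 library (grey bars); the solid line marks 0 and the dotted line −1. CCNE2, CDC25A and CCND2 lie below −1, and the interval of CDK6 includes 0.

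Of the E-type cyclins, CCNE1 (cyclin E1, chromosome 19, 29811991 to 29824312) had normalized counts of 600.3, 635 and 598 in the DMSO libraries and of 345, 335 and 325 after BRL-50481. The replicates of each group were close together and the groups well separated. CCNE1 fell by 0.86 on the log2 scale (SE 0.0780, limma adjusted p = 9.53e-07), to 54.9% of the DMSO mean.

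CCNE2, which encodes cyclin E2 (chromosome 8, 94879770 to 94896678), had normalized counts of 1141, 1034 and 1094 in the DMSO libraries and of 328, 229 and 327 after BRL-50481. BRL-50481 replicate 2 was lower than the other BRL-50481 libraries, and all of them were far below the DMSO libraries. The log2 fold change was −1.90 (SE 0.121, limma adjusted p = 4.75e-08), the largest fall among the members, leaving 27.02% of the DMSO mean. Of the 15246 genes tested, 93 (0.61%) had a lower log2 fold change than CCNE2. Without BRL-50481 replicate 2 the log2 fold change was −1.73.

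The balance between the E-type cyclins also moved. The ratio of CCNE2 to CCNE1 within a library was 0.83 ± 0.116 on the log2 scale in DMSO and −0.21 ± 0.302 in BRL-50481 (mean ± SD of 3 libraries), a difference of −1.04. It was lower in all BRL-50481 libraries than in any DMSO library (exact two-sided permutation p = 0.1, again the smallest possible, 0.12 adjusted over 6 ratios). Per kilobase of transcript, CCNE2 accounted for 54.4% to 58.1% of the E-type cyclin level in DMSO and for 33.3% to 42.4% in BRL-50481, so that the more abundant E-type cyclin was CCNE2 in all DMSO libraries and CCNE1 in all BRL-50481 libraries. The order in BRL-50481 depends on the transcript lengths used. Without them the log2 ratio of CCNE2 to CCNE1 was −0.073, −0.551 and 0.0086 in the BRL-50481 libraries. The summed level went from 720.2 ± 12 to 281.6 ± 21.9 normalized counts per kilobase (mean ± SD of 3 libraries).

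CDK2, the kinase that E-type cyclins activate (chromosome 12, 55966781 to 55972789), had normalized counts of 3154, 3291 and 3134 in the DMSO libraries and of 2610, 2486 and 2631 after BRL-50481. It was lower in every BRL-50481 library, but by less than its cyclins, with 80.7% of the DMSO mean remaining. The log2 fold change was −0.31 (SE 0.0513, limma adjusted p = 0.000178), and 24.6% of all genes tested had a lower one.

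CDC25A, the phosphatase that activates CDK2 and that checkpoint kinases mark for destruction after DNA damage (chromosome 3, 48157146 to 48188417), had normalized counts of 1837, 1912 and 1862 in the DMSO libraries and of 588, 574 and 557 after BRL-50481. Replicates were tight in both groups, and the BRL-50481 mean was 30.6% of the DMSO mean. CDC25A fell by 1.705 on the log2 scale (SE 0.0609, limma adjusted p = 5.97e-10), with 0.826% of all genes tested below it. Relative to CDK2 in the same library it moved by −1.40, from −0.77 ± 0.0179 to −2.17 ± 0.0640 (mean ± SD of 3 libraries, exact two-sided permutation p = 0.1, again the smallest possible, 0.12 adjusted over 6 ratios). Among the 9 member windows, only that of CDC25A held an E2F-type match. CCNE2 and CCND2, which also fell by more than 1, had no window. Any link between a match and the size of a fall was not tested.

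SKP2, the subunit through which the SCF ubiquitin ligase recognises p27 (chromosome 5, 36151989 to 36196849), had normalized counts of 672, 549 and 617 in the DMSO libraries and of 488, 492 and 489 after BRL-50481. The DMSO libraries varied widely and the BRL-50481 libraries hardly at all, and the lowest DMSO value was above the highest BRL-50481 value. The log2 fold change was −0.32 (SE 0.0849, limma adjusted p = 0.0059), from −0.39 to −0.25 when any 1 library was omitted, where the adjusted p-value reached 0.0245. CDKN1B, which encodes its substrate p27, was at 2032 ± 103 in DMSO against 2080 ± 14.3 normalized counts in BRL-50481 (mean ± SD of 3 libraries), a log2 fold change of 0.035 (SE 0.0558, limma adjusted p = 0.613). The ratio of SKP2 to CDKN1B moved by −0.35, from −1.73 ± 0.187 to −2.08 ± 0.0130 (mean ± SD of 3 libraries), with no overlap between the groups (exact two-sided permutation p = 0.1, again the smallest possible, 0.12 adjusted over 6 ratios).

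**Figure D3:**
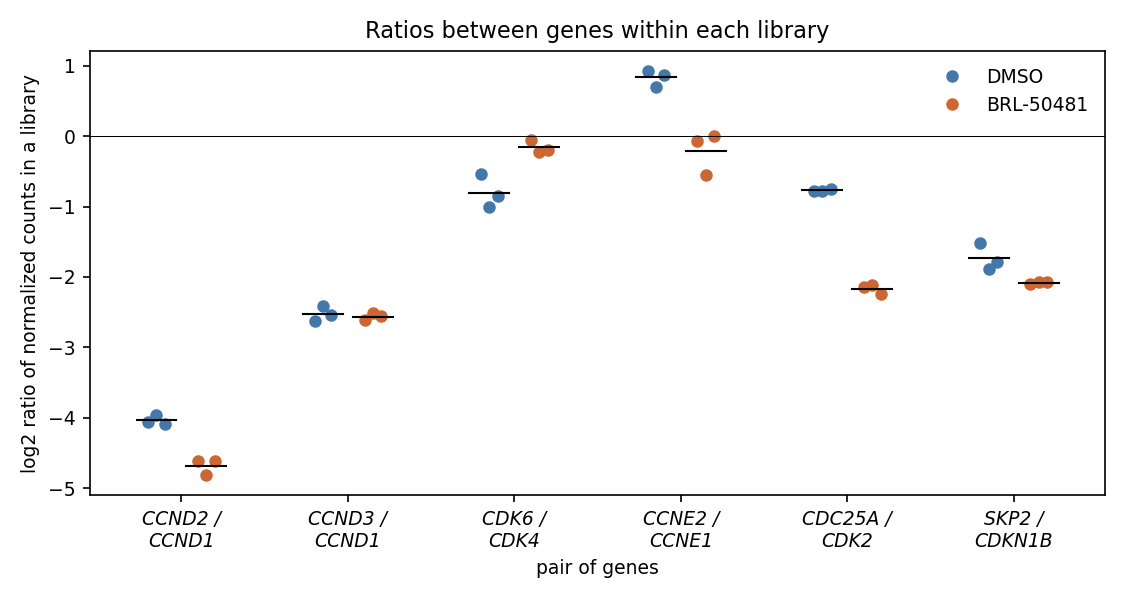
Log2 ratio of the normalized counts of paired genes within each library (y axis), for DMSO (blue) and BRL-50481 (orange), with a black line at the mean of each group. The groups are separate for 5 of the 6 pairs, and overlap for CCND3 over CCND1.

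In the order of the changes, members next to each other were not always separated. Ranked from the largest fall, the order was CCNE2, CDC25A, CCND2, CCNE1, CCND3, CCND1, CDK4, SKP2, CDK2 and CDK6. Within libraries, the groups of ratios did not overlap for CDC25A and CCND2 (a difference of −0.34) or CCND2 and CCNE1 (−0.50). Nor did they for CDK2 and CDK6 (−0.42). Each had p = 0.1 in an exact permutation test, the smallest possible here. The pairs were set by the fold changes of the same libraries, and the p-values are unadjusted. They describe the order and do not test it. The other neighbours overlapped, among them CCNE2 and CDC25A (−0.20, exact permutation test, p = 0.4) and SKP2 and CDK2 (−0.0069, exact permutation test, p = 1.0). Each set of cyclins fell by more than the kinase that it activates, as far as the point estimates go, and for CCND1 and CDK4 the groups of ratios overlapped (−0.19, exact permutation test, p = 0.2).

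Levels per kilobase of transcript placed CCND1 first in both groups (8003 ± 203 normalized counts per kilobase in DMSO and 4869 ± 44.7 in BRL-50481, mean ± SD of 3 libraries), followed by CDK4 (3834 ± 242 and 2656 ± 93.0), CCND3 (2909 ± 159 and 1722 ± 60.3) and CDK2 (1426 ± 38.2 and 1150 ± 35.0). These 4 did not overlap with their neighbours in either group. Below them, CDC25A (486.5 ± 10.0) came next in DMSO, ahead of CCNE2, CDK6, CCND2 and CCNE1, which overlapped in sequence between 306 and 427, and SKP2 was last (165 ± 16.6). In BRL-50481, CDK6 came next after CDK2 (379.9 ± 9.91), followed by CCNE1 (172 ± 5.27), CDC25A (149 ± 3.98) and SKP2 (132 ± 0.447), and CCND2 (124 ± 9.32) and CCNE2 (110.1 ± 21.3), which overlapped, were last. CCNE2 and CDC25A thus ranked below CCNE1 in all BRL-50481 libraries and above it in all DMSO libraries. The lowest SKP2 value in BRL-50481 (131.4) was just above the highest of CCND2 (130.7), so their order is not firm. Lengths are those of the canonical transcript. Use of a shorter form in both groups alike would shift a level but not a fold change, and the forms used were not examined.

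The gene pattern nearest to CCNE2, the member with the largest fall, was sought among the 11454 other genes whose mean over the libraries reached 100 normalized counts, by the root-mean-square distance of the 6 log2 values after each gene was centred on its mean. The nearest were EN2 (distance 0.136, log2 fold change −2.07), ADAMTS1 (0.175, −2.07) and TMEM52 (0.178, −2.06). They also had large falls, and nothing follows from this likeness about shared control.

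Other genes of the G1/S machinery were counted in 9 lists in the same fit, beside the 29.8% lower and 28.9% higher among all genes. These lists, like the members, were chosen with earlier results of these data known. The gene highest in normalized counts is named for most lists, a rank that is not corrected for transcript length and is no order of levels. Where a list had few called genes they are named here, and CDKN2C, CDKN2D, SKP1, CKS1B, FBXO31, CUL1, FBXW7, WEE1, CTNNB1 and CREB1 were named after their values were seen. Of the CDK inhibitors, 5 of 7 were tested, and CDKN2A and CDKN2B were not analysed here. CDKN1A, CDKN1C and CDKN2D were lower, CDKN2C was higher, and the median log2 fold change was −0.25. CDKN1A, which encodes p21 and was the highest of the list in normalized counts, went from 9516 ± 442 to 7181 ± 146 normalized counts (mean ± SD of 3 libraries), a log2 fold change of −0.41 (limma adjusted p = 1.1e-05), and the largest called change was that of CDKN1C, which encodes p57 (−0.74).

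Among the pocket proteins, the substrates of these kinases that hold E2F factors in check, 2 of 3 were higher and 1 was not called, with a median of 0.35. RB1 went from 2455 ± 223 to 3132 ± 74.4 normalized counts (mean ± SD of 3 libraries), a log2 fold change of 0.35 (limma adjusted p = 0.0004), and RBL2, the pocket protein p130 of resting cells, had 0.85. Of the 10 E2F factors and DP partners, 7 were lower and 1 was higher (median −0.31), and after correction for length and GC content 9 were lower. E2F1, an activator, had a log2 fold change of −1.15 and E2F7, a repressor and the highest of the list in normalized counts, one of 0.74.

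All 10 genes of the origin licensing list, which also holds PCNA, were lower, with a median of −0.87. These E2F targets load the replicative helicase or act at the fork, and PCNA, the sliding clamp, changed most, from 7049 ± 373 to 2967 ± 62.4 normalized counts (mean ± SD of 3 libraries, log2 fold change −1.25). MCM7, a helicase subunit and the highest in normalized counts, had −0.84. In contrast, all 5 genes of the later cyclins and their kinase were higher, with a median of 1.07. CCNB1, which encodes cyclin B1 of mitotic entry, went from 2334 ± 69.7 to 7315 ± 148 normalized counts (mean ± SD of 3 libraries, log2 fold change 1.65), and CDK1, its kinase, had 0.30. The G1 cyclins and the later cyclins therefore moved in opposite directions in the same libraries.

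All 3 genes of the CDK-activating kinase, which phosphorylates the activation loop of these kinases, were lower (median −0.25), with CDK7 at −0.25 and CCNH at −0.87, and with quantile normalization 2 of the 3 were. Among the enzymes of inhibitory phosphorylation, WEE1 was lower, CDC25B (0.25) and CDC25C (0.69), the relatives of CDC25A that act later in the cycle, were higher, and 1 of 4 was not called. CDC25A thus moved against both of its paralogs. Of 10 ubiquitin ligase parts for p27 and the cyclins, 3 were higher (CUL1, FBXW7 and FBXO4), 3 were lower (SKP1, CKS1B and FBXO31) and 4 were not called, with a median of −0.013 that was above 0 with quantile normalization (0.034) and median centring (0.018). With DESeq2, quantile normalization or median centring, 2 of these parts were lower. After correction for length and GC content 5 were lower and 2 higher. FBXO4, a receptor for cyclin D1, changed most (0.74), and DDB1, the highest in normalized counts, had −0.059 (limma adjusted p = 0.303).

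Of 8 regulators of D-type cyclin transcription, 5 were lower, CTNNB1 and CREB1 were higher, and the median was −0.25. With quantile normalization or median centring, 3 of these regulators were higher. MYC was both the highest in normalized counts and the one that changed most, from 27641 ± 1435 to 12291 ± 177 normalized counts (mean ± SD of 3 libraries, log2 fold change −1.17).

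**Figure D4:**
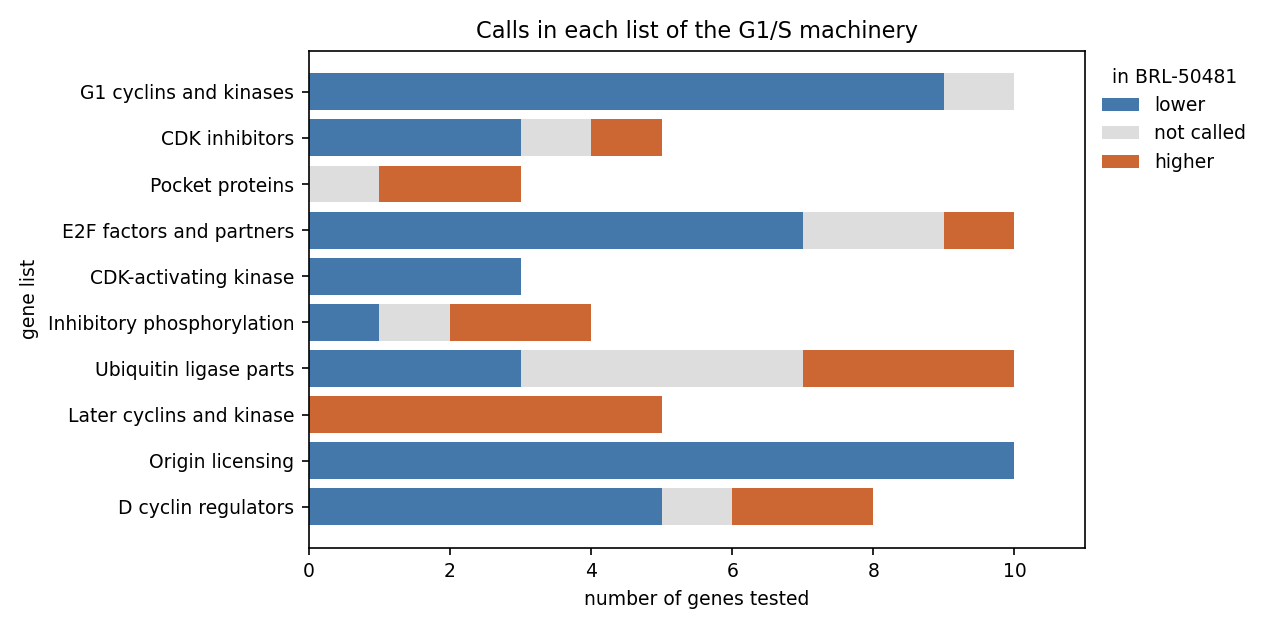
Number of genes tested (x axis) in each list that were lower (blue), not called (grey) or higher (orange) in BRL-50481-treated cells at an adjusted p-value under 0.05. The G1 cyclins and kinases had 9 lower and 1 not called, and the origin licensing list, which includes PCNA, had 10 lower. The later cyclins and their kinase stand opposite (5 higher).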

How the data were processed

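Total RNA of 6 MDA-MB-231 samples was sequenced. Library text of the labels names oligo-dT selection, and the series record names removal of ribosomal RNA, so which was used is not settled here. According to the methods and the submitters' processing notes, STAR 2.7.1a placed 76-base single-end reads on hg38, HTSeq counted them on the reverse strand of UCSC genes, and DESeq2 1.28 normalized the counts. The deposited signal is therefore a read count divided by the size factor of its library, as computed by the authors. Each value divided by what 1 read is worth in its library gave a whole number (100% within 0.001 read), so reads could be recovered. The table also holds the authors' mean, fold change, standard error, test statistic and p-values, which were not used.

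The filter kept 15246 genes that reached a normalized count of 4 in 3 or more samples. With limma 3.58.1 in R 4.3.3 (eBayes trend option), a linear model compared log2 of the normalized count plus a pseudocount of 1 between the groups given by the labels, with no covariate, two-sided, and Benjamini-Hochberg adjustment ran over all genes tested. Fold changes on this scale understate the change of low genes, but the group means of the members were 294 or more. edgeR 4.0.16 and DESeq2 1.42.0 were run on the recovered reads as alternatives. Ratios within libraries were compared by exact permutation over the 20 divisions of the 6 samples. Positions and canonical transcript lengths came from GENCODE release 44 on hg38, and 90.8% of genes matched by symbol. Promoters came from RefSeq.

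Beside the members and PDE7A, the rule for named genes takes the gene with the most normalized counts and the largest called change of each list, CDKN1B, E2F1, RB1 and MYC, and the 3 genes nearest in pattern to the members with the largest called rise and fall, where no member was called higher. Another 10 genes of the lists, named in the text as such, were added after their values were seen. The members and lists were chosen with earlier results of these data known. Replicates numbered alike were not treated as pairs in the main fit. The correlations of their deviations from the group means were 0.12, 0.10 and 0.051. Those of libraries with unlike numbers ran from −0.16 to 0.061, so pairing is not excluded. A fit with the replicate number as a block is given below. The procedures were tested on simulated data with known changes. Far fewer genes changed there than were called here, so that run does not speak for these data. The error given is the SD between 3 replicates, which can fall below the counting error of a gene. This was so for SKP2 in BRL-50481 (485 to 505 reads, SD 1.66 normalized counts) and PDE7A in DMSO (400 to 413 reads, SD 2.06). Such tight SDs are no measure of precision.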

Additional observations from a re-analysis of the deposited data

How the results depend on the processing

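The 9 members called lower kept that call in all 20 fits, which used other pseudocounts (0.5 and 4), edgeR, DESeq2, median centring, quantile normalization, the replicate block, no trend in limma, no filter or a minimum mean of 20, corrections for transcript length and GC content, and each library left out in turn. The length-only and GC-only corrections were chosen after seeing the data. CDK6 was the exception. With quantile normalization it was called higher (log2 fold change 0.16, adjusted p = 0.0409), so that 1 member was higher, and with each library left out its log2 fold change lay between 0.050 and 0.19, with 0 to 1 members called higher and 9 lower. After correction for length and GC content it was −0.13, and after correction for length alone −0.14 (adjusted p = 0.00341), whereas correction for GC content alone left it uncalled at 0.018. The cause was not tested.

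With the replicate number as a block, 4440 genes were higher and 4589 lower against 4400 and 4546 without it, 9 members were lower and 0 higher, and no member changed its call. Over the fits without 1 library the CCND3 to CCND1 ratio moved between −0.091 and 0.018, and it was 0.088 after correction for length and GC content. The same correction gave 0.37 for CDK6 to CDK4 and −1.45 for CDC25A to CDK2. It also moved the list medians to −0.16 (CDK inhibitors), 0.24 (pocket proteins), −0.39 (E2F factors), 0.16 (inhibitory phosphorylation), −0.095 (ubiquitin ligase parts, 5 of them lower) and −0.92 (origin licensing). Quantile normalization gave −0.19 for the D cyclin regulators and 0.034 for the ubiquitin ligase parts, and median centring 0.018 for the latter. The direction of the ubiquitin ligase median is thus not firm, and the causes were not tested.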
